A study of Mus musculus with 3 samples.

Results

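The cells described here are cycling macrophages of the mouse stomach muscle, set beside non-cycling macrophages of the same libraries. A macrophage was a cell barcode with at least 3000 UMIs (unique molecular identifiers, 1 for each captured RNA molecule), at most 15% mitochondrial UMIs and at least 10 UMIs of the complement genes C1qa, C1qb and C1qc together. A macrophage was called cycling with at least 2 UMIs of Mki67 and Top2a together, and non-cycling with 0. By this rule 146 of 1418 macrophages, and of 5735 barcodes in all, were cycling, with 13, 77 and 56 in replicates 1, 2 and 3. Another 1158 macrophages were non-cycling, with 148, 481 and 529 in those replicates, and 114 macrophages with 1 UMI were left out of both.

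The 3 libraries were droplet single-cell RNA libraries, read from the 3' end of transcripts, of CD45+ leukocytes sorted from the digested stomach muscle layer of female C57bl/6 mice. All 3 carried the label NonDiabetic, and the labels give neither an age nor a treatment. Nothing in the labels ties each library to its own animal, and p-values therefore reflect only how these libraries vary, which may be technical. Cycling and non-cycling cells were taken from the same 3 libraries, so each library gave a pair of summed profiles.

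Muscularis macrophages lie between the smooth muscle layers of the gut wall and next to enteric nerves. In mouse tissues, resident macrophages can be maintained by division in place, by entry of Ccr2-positive blood monocytes, or by both. A dividing cell first licenses and copies its DNA in S phase, with histones and deoxynucleotides made in parallel, and then condenses its chromosomes, builds a spindle and separates the copies in mitosis. Mki67 encodes the Ki-67 protein that coats mitotic chromosomes, and Top2a encodes the topoisomerase that untangles the copied DNA. Both are transcribed mainly from S phase to mitosis, so a cell in early G1 phase can be without either.

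The libraries held 881, 2839 and 2015 barcodes. Cycling cells carried more RNA molecules than non-cycling cells: their median was 15519, 14316 and 12441.5 UMIs in replicates 1, 2 and 3, against 8619, 9231 and 8435 UMIs in non-cycling cells. The log2 ratio of the medians was 0.68 ± 0.15 (SD, n = 3), and it was positive in all 3 libraries. A deeper cell has more chances to show 2 UMIs of Mki67 and Top2a, so results are also given below with non-cycling cells matched on UMIs. The match was partial: the matched non-cycling cells had medians of 12811, 10187 and 10598 UMIs in replicates 1, 2 and 3. They were thus still shallower than the cycling cells, and depth was not made equal. Median mitochondrial shares were 3.1%, 2.45% and 2.65% in cycling cells, against 3.27%, 3.12% and 2.87% in non-cycling cells. Replicates 2 and 3 shared 33 barcode sequences and replicates 1 and 3 shared 1. Among those were 0, 5 and 2 cycling and 0, 1 and 5 non-cycling macrophages of replicates 1, 2 and 3, and results that rest on them are given again without them.

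The cells were chosen by their UMIs of Mki67 and Top2a, so the level of these genes is a description and no finding. Mki67 stood at 518, 405 and 538 CPM (the usual scaling of counts by the total of the profile) in the summed cycling cells of replicates 1, 2 and 3, and Top2a at 307, 371 and 576 CPM, against 0 in non-cycling cells by construction. Both transcripts were found in 69 of the 146 cells, Mki67 alone in 68 and Top2a alone in 9. Just inside the threshold lay 42 cells with 2 UMIs and 21 with 3, just outside it the 114 cells with 1. Another 37 cells had 4 to 9 UMIs and 46 had 10 or more, with 86 as the highest. Choosing cells by 1 of the 2 genes left the other out of that choice. With Mki67 alone as the rule, Top2a was at 341, 388 and 673 CPM in cycling cells, against 6.52, 3.91 and 5.95 CPM in non-cycling cells. The log2 fold change was 6.52 ± 0.22 (SE, adjusted p = 9.78e-09), where 5.29% of all genes tested were called higher and 2.32% lower. Those non-cycling levels lay under 7.58 CPM, the minimum of the filter on low counts in the main test. Top2a may thus have been tested only through cycling cells, so its p is a description. With Top2a alone as the rule, Mki67 was at 504, 621 and 682 CPM in cycling cells, against 35.5, 28.7 and 16.1 CPM in non-cycling cells, a log2 fold change of 4.50 ± 0.27 (SE, adjusted p = 3.31e-07), where 7.65% were called higher and 4.84% lower.

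The cycling cells carried transcripts of macrophages, of which those of the C1q genes were required by the rule. C1qa, on the rule, stood at 2858, 2687 and 3509 CPM in cycling cells, against 3021, 3639 and 4654 CPM in non-cycling cells. The 10 macrophage markers, which include the C1q genes, summed to 10978, 11049 and 13324 CPM in cycling cells. In non-cycling cells they summed to 11712.5, 14236 and 16972 CPM, more in each library. Among the markers off the rule, Adgre1, which encodes the F4/80 antigen, was at 406, 303 and 312 CPM in cycling cells. Adgre1 was at 329, 379.7 and 399 CPM in non-cycling cells, with no call (adjusted p = 0.467), whereas Csf1r, Mertk and Mrc1 were called lower, as given below. Transcripts of other cell types were low on both sides, though not absent. The 9 markers of T or NK cells summed to 4.5, 0 and 0 CPM in cycling cells, against 1.4, 5.8 and 6.5 CPM in non-cycling cells, and the 4 endothelial markers to at most 2.7 and 4.9 CPM. The 8 markers of group 2 innate lymphoid cells (ILC2) summed to 117, 331 and 151 CPM in cycling cells, against 353, 422 and 133 CPM in non-cycling cells. The 9 markers of conventional dendritic cells summed to 27.1, 201 and 156 CPM in cycling cells, against 153, 108 and 60.9 CPM in non-cycling cells. The 9 monocyte markers summed to 1181, 679 and 490 CPM in cycling cells, against 1615, 554 and 442 CPM in non-cycling cells, and Ly6c2, which defines classical monocytes, was at 0 in the cycling cells of all 3 libraries. The 6 markers of B or plasma cells summed to 13.5, 57.0 and 15.1 CPM in cycling cells, against 11.9, 13.3 and 19.9 CPM in non-cycling cells. At least 3 UMIs of the markers of 1 lymphoid class, of mast cells, of granulocytes or of fibroblasts and smooth muscle were found in 38.5%, 35.1% and 32.1% of cycling cells, against 23.6%, 33.3% and 20.4% of non-cycling cells. That cut is a fixed count and cycling cells were deeper, so these shares are not at equal depth. The barcodes with the highest doublet scores included 0 cycling macrophages and 1, 18 and 23 non-cycling ones of replicates 1, 2 and 3. The part of these transcripts in the results below was not tested beyond the values given without such cells.

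Promoters are shown for the genes with the smallest p among called members that have a row in the promoter table, in the mitosis list (Ube2c and Nusap1, with Stmn1 between them by p but without a row) and in the DNA replication list (Mcm5 and Lig1), because these lists hold the machinery of the 2 phases that the rule genes mark. Each is the stretch from 250 bases before to 50 bases after a RefSeq start site on GRCm38.p6, 5′ to 3′ on the gene's strand, which is the plus strand for all 4. Where the table held several starts, the one nearest the gene's 5′ end in the GENCODE annotation was taken. Capitals mark matches, on either strand, to CCAAT (the box bound by NF-Y), to TTTGAA (the CHR element of late cell cycle genes) or to an E2F core, for which the letters TTCCCGC were searched, then the variant with TTCGCGC and last the one with TTGGCGC.
Ube2c, chr2:164769679-164769978: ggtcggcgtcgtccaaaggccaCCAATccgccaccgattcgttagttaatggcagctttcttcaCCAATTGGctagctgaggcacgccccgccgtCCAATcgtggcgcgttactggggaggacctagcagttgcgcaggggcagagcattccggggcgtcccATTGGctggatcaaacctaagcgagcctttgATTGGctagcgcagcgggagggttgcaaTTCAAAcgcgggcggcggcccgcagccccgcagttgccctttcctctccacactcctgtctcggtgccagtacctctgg
Nusap1, chr2:119618048-119618347: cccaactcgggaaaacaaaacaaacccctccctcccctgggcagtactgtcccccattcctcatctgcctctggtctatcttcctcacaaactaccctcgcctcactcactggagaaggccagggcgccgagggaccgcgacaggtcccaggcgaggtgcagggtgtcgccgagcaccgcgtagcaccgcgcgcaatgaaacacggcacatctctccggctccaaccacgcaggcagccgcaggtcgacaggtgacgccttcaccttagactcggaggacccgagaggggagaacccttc
Mcm5, chr8:75109259-75109558: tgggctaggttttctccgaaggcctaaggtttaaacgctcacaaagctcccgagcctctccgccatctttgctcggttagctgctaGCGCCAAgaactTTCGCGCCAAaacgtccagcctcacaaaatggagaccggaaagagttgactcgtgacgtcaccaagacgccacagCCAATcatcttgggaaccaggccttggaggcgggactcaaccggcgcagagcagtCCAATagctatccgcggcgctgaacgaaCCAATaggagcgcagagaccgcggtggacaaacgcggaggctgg
Lig1, chr7:13276925-13277224: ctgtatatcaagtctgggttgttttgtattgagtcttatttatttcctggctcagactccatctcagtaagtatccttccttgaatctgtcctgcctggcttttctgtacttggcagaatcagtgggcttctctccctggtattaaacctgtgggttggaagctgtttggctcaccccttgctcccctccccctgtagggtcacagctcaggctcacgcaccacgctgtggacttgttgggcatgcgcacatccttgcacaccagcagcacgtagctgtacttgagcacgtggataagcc

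The Ube2c promoter held 6 CCAAT matches, of which 2 overlap in CCAATTGG, and 1 CHR element whose first base lay 29 bases before the start. The Mcm5 promoter held 3 CCAAT matches and 3 E2F matches, of which 2 overlap, and no CHR element. The windows of Nusap1 and Lig1 held none of these letters. With 1 promoter a gene, the CHR letters stood in 41 of 60 promoters of tested mitosis genes (68.3%), in 3 of 26 of tested DNA replication genes (11.5%) and in 781 of 6757 of all tested genes (11.6%). An E2F core stood in 13 of the 60 mitosis promoters (21.7%), in 14 of the 26 replication promoters (53.8%) and in 1075 of the 6757 (15.9%). CCAAT stood in 44 mitosis promoters (73.3%), 16 replication promoters (61.5%) and 2642 of all (39.1%). Of the 12 promoters found for the Lyve1 macrophage programme described below, 1 held the CHR letters (8.3%), 4 held CCAAT (33.3%) and 0 held an E2F core. These matches describe letters in a window and were not tested.

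Across libraries, cycling cells made up 9.63% ± 2.68 (SD, n = 3) of macrophages. The share was 7.43% in replicate 1, 12.6% in replicate 2 and 8.85% in replicate 3, with exact Clopper-Pearson 95% intervals of 4.01 to 12.4%, 10.1 to 15.5% and 6.75 to 11.3%, which overlap. Intervals cover counting error only. With every cell thinned to 3000 UMIs, 4.12% ± 1.09 of macrophages still held at least 2 UMIs of the pair and 8.92% ± 1.38 at least 1. Barcodes outside the macrophage rule, above the same minimum of 3000 UMIs, were set beside them by their markers. Their median depth differed, at 16196 UMIs in conventional dendritic cells, 11166 in monocytes and 7146 in ILC2, against 9280 in macrophages, so the shares are not at equal depth. Cycling by the same threshold were 69 of 242 conventional dendritic cells (28.5%), 34 of 190 monocytes (17.9%) and 21 of 417 ILC2 (5.04%). With each cell thinned to 3000 UMIs, the pooled shares with at least 2 UMIs were 10.7%, 10.5% and 2.16% in these classes. The pooled share of macrophages was then 4.51%, and dendritic cells and monocytes were nearly alike at this threshold. With at least 1 UMI after thinning they were not, at 23.6% of dendritic cells and 16.8% of monocytes. ILC2 were then at 5.52% and macrophages at 9.38%. Of 65 fibroblasts and smooth muscle cells, which had a median of 14289 UMIs, 2 passed (3.08%, interval 0.375 to 10.7%), and 0 held a UMI of the pair once thinned, which allows a share of up to 4.62%, taken as 3 counts of 65.

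Macrophages with and without Lyve1, Ccr2 or Cx3cr1 differed in how many of them were cycling, in the same direction in every library at full depth. Lyve1 encodes a hyaluronan receptor of resident macrophages along vessels, Ccr2 the chemokine receptor that brings monocytes into tissue, and Cx3cr1 the fractalkine receptor. Among macrophages with at least 1 Lyve1 UMI, 4 of 72, 30 of 350 and 22 of 354 were cycling in replicates 1, 2 and 3 (5.56%, 8.57% and 6.21%), against 8.74%, 18.1% and 12.2% of those with none. Among Ccr2-positive macrophages 8.65%, 19% and 13.6% were cycling, against 5.63%, 8.10% and 6.31% of Ccr2-negative ones. Among Cx3cr1-positive macrophages 13.5%, 17.3% and 10.3% were cycling, against 0 of 79, 10.4% and 7.53% of Cx3cr1-negative ones. The count of 0 in replicate 1 allows a share of up to 3.80%, taken as 3 counts of 79. Each library thus had its lower share on the Lyve1-positive, the Ccr2-negative and the Cx3cr1-negative side, as the plot of shares by transcript shows.

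**Figure D1:**
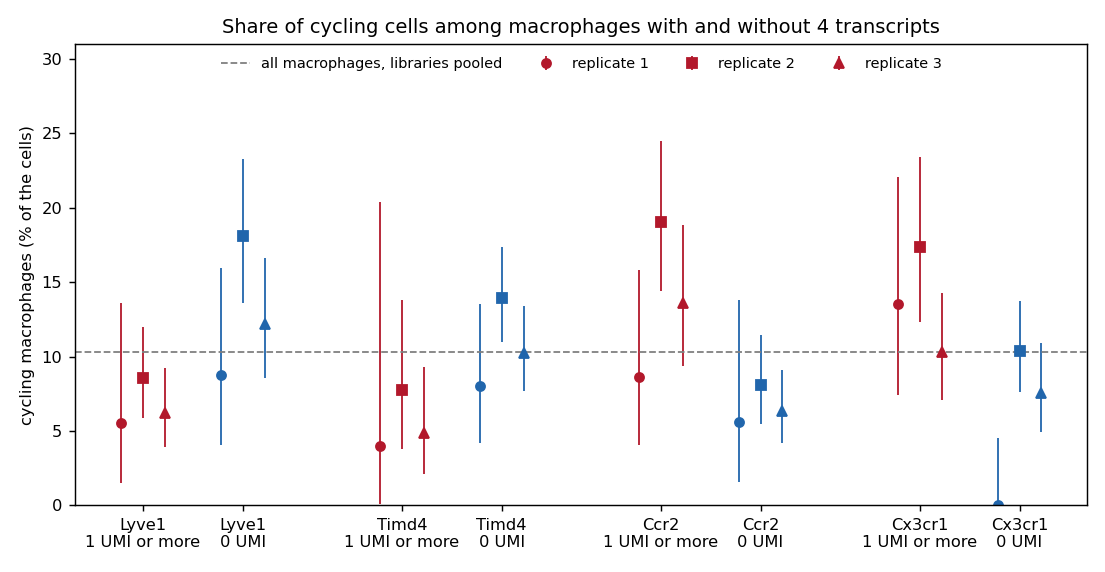
Share of cycling cells (y axis, % of the cells) among macrophages with at least 1 UMI (red) and with 0 UMI (blue) of Lyve1, Timd4, Ccr2 and Cx3cr1, 1 symbol a library, with exact 95% intervals for counting error. In every library the share was lower with Lyve1 or Timd4 than without, and higher with Ccr2 or Cx3cr1 than without; the dashed line is the pooled share of 10.3%.

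The log2 odds ratio of cycling, positive over negative, was -1.07 ± 0.37 for Lyve1 and 1.24 ± 0.40 for Ccr2 (SD, n = 3), and an exact sign-flip test, two-sided, gave p = 0.25 for each, the smallest p that 3 libraries can give. For Cx3cr1 it was 2.08 ± 2.23 (exact p = 0.25) and 0.80 without replicate 1, whose count of 0 sets its size. Thinned to 3000 UMIs, with the classes drawn again and cycling called from 1 UMI, the values were -0.89 for Lyve1, 0.66 for Ccr2 and 0.80 for Cx3cr1. At 2 UMIs after thinning, replicate 1 turned for Lyve1 (3.28% of positive against 2.63% of negative cells) and for Ccr2 (2.20% against 3.57%), on 5 cycling cells, and over all libraries the Ccr2 shares were 5.01% against 4.29%. Without cells that carried markers of other classes the log2 odds ratios were -0.67, 0.64 and 2.01, and for Lyve1 and Ccr2 the sign then held in 2 of 3 libraries (exact p = 0.5). With cycling called from 10 UMIs, the values were -0.59 ± 0.43 for Lyve1, 0.83 ± 0.95 for Ccr2 and 2.35 ± 0.89 for Cx3cr1 (SD). Those of Lyve1 and Ccr2 were thus closer to no difference, with a wide spread for Ccr2. Timd4, which marks long-lived resident macrophages in mice, had a log2 odds ratio of -0.95 ± 0.22 (exact p = 0.25) and of -1.68 after thinning, from 1 UMI. For Folr2, Cd163 and the MHC class II gene H2-Ab1, replicate 1 had the opposite sign to replicates 2 and 3. The 7 genes were not adjusted for one another, since none could pass a threshold with 3 libraries.

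The 3 transcripts split macrophages into 8 combinations. By the mean over libraries the lowest share was in the most frequent one, Lyve1-positive cells without Ccr2 or Cx3cr1, at 2.71% ± 2.54 (SD, n = 3), with 0 of 37, 12 of 238 and 7 of 226 cycling. The highest mean was in Lyve1-positive cells with Cx3cr1 and without Ccr2, with 3 of 13, 8 of 41 and 10 of 88 cycling. Lyve1-negative cells with Ccr2 and without Cx3cr1 had the highest pooled share, 27 of 155 (17.4%, interval 11.8 to 24.3%), but 0 of 25 in replicate 1 and a mean of 13.6%. Several combinations held 5 to 25 cells in replicate 1, so the order above the lowest is uncertain. Median depth was 7986 UMIs in the first of these combinations, 9583.5 in the second and 11656 in the third.

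For each library, UMIs were summed over cycling and over non-cycling cells, and the paired sums were tested over 8494 genes. At an adjusted p under 0.05, 565 genes were higher in cycling cells (6.65%) and 330 were lower (3.89%). The median gene moved by 0.01 on the log2 scale. On the non-cycling profiles alone 7540 of the 8494 genes would have passed the filter on low counts. Of these, 364 were higher and 325 lower. The remaining higher calls were of genes that passed it only with the cycling profiles, and so do not count as support. The same count on the cycling profiles alone was not made, so some lower calls may rest on the non-cycling profiles. The counts moved with the libraries used: 995 higher (9.93%) and 741 lower (7.4%) without replicate 1, 301 and 76 without replicate 2, and 384 and 207 without replicate 3. With non-cycling cells matched on UMIs, 383 were higher (4.8%) and 169 lower (2.12%) of 7978, with every cell thinned to 3000 UMIs 253 (5.43%) and 161 (3.46%), and without cells that carried markers of other classes 312 and 143. Mki67, Top2a, the C1q genes and the mitochondrial genes set the sides and were not tested.

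DNA replication genes were higher in cycling cells, by about the same amount in each library. Of 37 listed genes 32 passed the filter on low counts, and 29 of these were higher and 0 lower, with a median log2 fold change of 2.08 (0.01 over all genes tested). On the non-cycling profiles alone 23 of the 32 would have passed the filter, and 20 of these were higher (median 1.91). Over all genes tested 6.65% were higher, as were 364 of the 7540 that would have passed on the non-cycling profiles alone. These are the shares to set beside each list from here to DNA repair. In sum over the 37 genes the list stood at 2610.4, 1717 and 2154 CPM in cycling cells, against 697, 488 and 550.0 CPM in non-cycling cells. Mcm5, a subunit of the replicative helicase (chr8:75109569-75128439), was at 131, 97.5 and 114 CPM in cycling cells, against 22.4, 10.7 and 15.1 CPM in non-cycling cells, a log2 fold change of 2.91 ± 0.19 (SE, adjusted p = 8.32e-07). Lig1, the ligase that joins Okazaki fragments (chr7:13277283-13311433), was at 162, 122 and 139.6 CPM in cycling cells, against 33.6, 23.7 and 32.1 CPM in non-cycling cells (log2 fold change 2.22 ± 0.15, adjusted p = 1.29e-06). For both genes each cycling profile lay above every non-cycling profile, as for 11.2% of all genes tested. Mcm7, another helicase subunit, had a log2 fold change of 2.54 ± 0.17 (adjusted p = 1.33e-06). Cdc6, Pola2 and Prim2 were not called, with log2 fold changes of 0.99, 1.07 and 0.94.

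Genes that supply deoxynucleotides were higher as well. Of 20 genes 18 were tested, 11 were higher and 0 lower (median 0.89), and 6 were higher without replicate 2. On the non-cycling profiles alone 11 would have passed the filter, and 5 of these were higher (median 0.74). Tk1, thymidine kinase, was at 27.1, 36.3 and 116 CPM in cycling cells, against 0, 0.428 and 1.68 CPM in non-cycling cells, a log2 fold change of 6.17 ± 0.36 (SE, adjusted p = 3.93e-07). Dut, which keeps uracil out of DNA, and Rrm1, a subunit of ribonucleotide reductase, had log2 fold changes of 3.38 ± 0.21 and 2.80 ± 0.20. Tk1 was nearly absent outside the cycling cells, whereas Dut and Rrm1 were found on both sides, with 8.40, 7.06 and 10.5 CPM of Dut in non-cycling cells. Tk1 lay under 7.58 CPM, the filter minimum, in each non-cycling profile, and Dut in that of replicate 2. Both passed only with the cycling profiles, so their values are a description. The purine enzymes Gart, Ppat, Gmps and Atic were not called, at -0.03, 0.35, 0.21 and 0.41.

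Chromatin genes followed: of 30 listed, 26 were tested, 24 were higher and 0 lower (median 2.83). On the non-cycling profiles alone 16 would have passed the filter, and 15 of these were higher (median 1.81). Hist1h1b, a linker histone, was at 31.6, 119.8 and 298 CPM in cycling cells, against 2.80, 0 and 1.26 CPM in non-cycling cells. Its non-cycling levels lay under 7.58 CPM, the filter minimum, so Hist1h1b had to differ. The spread between libraries was wide here, with replicate 3 far above replicate 1, and histone genes have near-identical copies among which counting could split reads, so single histone genes are uncertain. Hmgb2, a DNA-bending protein, was at 978, 567 and 1188 CPM in cycling cells, against 137, 108 and 117 CPM in non-cycling cells, a log2 fold change of 2.83 ± 0.17 (SE, adjusted p = 4.73e-07). The linker histone Hist1h1c and the chromatin assembly gene Chaf1b were not called, at -0.03 and 0.96.

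Mitosis genes were higher in cycling cells. Of 75 listed genes 71 were tested, 69 were higher and 0 lower, with a median log2 fold change of 4.77. Of the 71, 51 would not have passed the filter on the non-cycling profiles alone and so had to differ. Among the other 20, 18 were higher, with a median of 1.48. In sum the list stood at 8336, 6325 and 10672 CPM in cycling cells, against 1856, 1707 and 1650.3 CPM in non-cycling cells. Ube2c, which loads ubiquitin onto proteins that must vanish at the end of mitosis (chr2:164769898-164778822), was at 122, 125 and 253 CPM in cycling cells, against 0, 1.92 and 2.94 CPM in non-cycling cells, a log2 fold change of 6.37 ± 0.26 (SE, adjusted p = 4.45e-08). Nusap1, which binds spindle microtubules (chr2:119618298-119651244), was at 54.1, 80.1 and 148 CPM in cycling cells, against 0.70, 0.855 and 0.840 CPM in non-cycling cells (log2 fold change 6.87 ± 0.30). Stmn1, a microtubule destabiliser, was at 523, 515 and 1074 CPM in cycling cells, against 26.6, 40.6 and 51.0 CPM in non-cycling cells (log2 fold change 4.07 ± 0.17). Replicate 3 was highest for each of these 3 genes. Each cycling profile lay above every non-cycling profile, as for 11.2% of all genes tested. Ube2c and Nusap1 lay under 7.58 CPM, the filter minimum, in each non-cycling profile and so had to differ. Pttg1 (-0.07) and Tuba1c (0.36) were the tested members without a call.

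**Figure D2:**
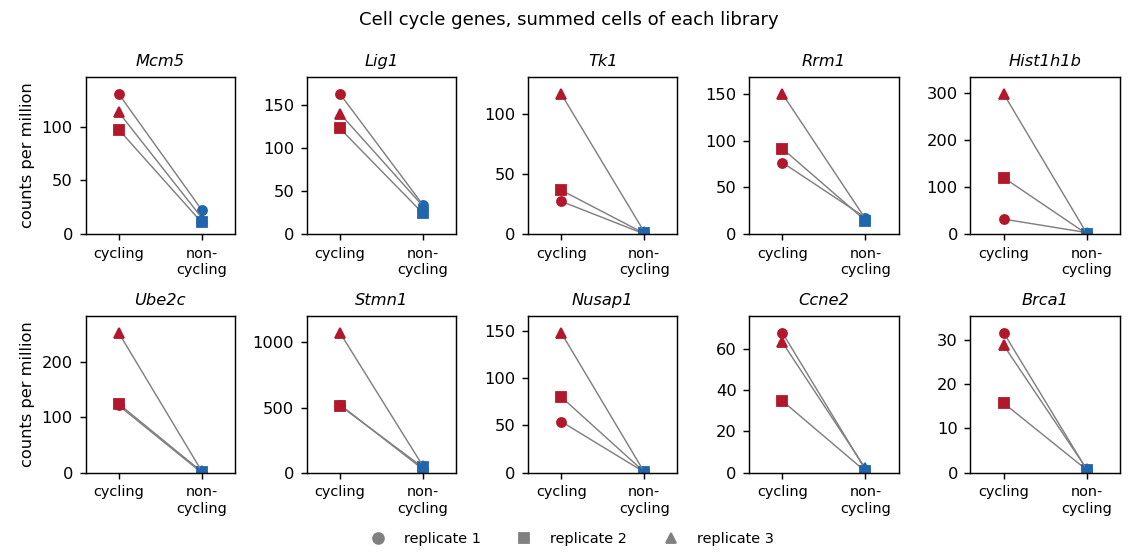
CPM (y axis, from 0) of 10 cell cycle genes in summed cycling (red, left) and non-cycling (blue, right) macrophages, with a line for each library. In all 10 panels the 3 cycling profiles lie above the 3 non-cycling ones, as for 11.2% of all genes tested. Tk1, Hist1h1b, Ube2c, Nusap1, Ccne2 and Brca1 passed the filter on low counts only with the cycling profiles and so had to differ. Ube2c is at 122 to 253 CPM in cycling and 0 to 2.94 CPM in non-cycling cells.

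Of the genes that govern entry into the cycle, several were higher, while the 3 D cyclins were not called. Of 25 listed genes 21 were tested, 12 were higher and 0 lower (median 1.32). On the non-cycling profiles alone 11 would have passed the filter, and 3 of these were higher (median 0.51). Ccne2, a cyclin of the step into S phase, was at 67.6, 34.7 and 62.9 CPM in cycling cells, against 1.4, 0.641 and 2.10 CPM in non-cycling cells, a log2 fold change of 5.18 ± 0.34 (SE, adjusted p = 1.25e-06). Ccne2 lay under 7.58 CPM, the filter minimum, in each non-cycling profile and so had to differ. Foxm1, which drives mitotic genes, and E2f8, an E2F repressor, had log2 fold changes of 4.80 ± 0.41 and 3.87 ± 0.37. Ccnd1, the cyclin that growth factors induce, was at 293, 211 and 203 CPM in cycling cells, against 321, 155 and 284 CPM in non-cycling cells (log2 fold change -0.07 ± 0.17, adjusted p = 0.872). Its profiles overlapped, as did those of Ccnd2 (0.27 ± 0.13) and Myc (-0.54), and Ccnd3 was at 0.13. These genes were named after their values were seen.

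DNA repair genes included 14 higher and 0 lower of 18 tested, of 25 listed (median 2.47). On the non-cycling profiles alone 8 would have passed the filter, and 5 of these were higher (median 0.98). Brca1, which directs repair by recombination, was at 31.6, 15.7 and 28.7 CPM in cycling cells, against 0.70, 0.641 and 0.840 CPM in non-cycling cells (log2 fold change 4.86 ± 0.44, adjusted p = 1.26e-05). Neil3, a glycosylase of replicating cells, had 46 counts in cycling cells against 1 in non-cycling cells, a ratio of 231 with a counting interval of 39.5 to 9325. Brca1 and Neil3 lay under 7.58 CPM, the filter minimum, in each non-cycling profile and so had to differ.

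Of 24 tested inhibitors of the cycle, of 26 listed, 2 were higher and 6 were lower (median -0.35), where 6.65% of all genes tested were higher and 3.89% lower. Without replicate 1 there were 5 higher and 10 lower of 25, and without replicate 2 there were 2 and 3 of 24. The higher ones were the CDK4 and CDK6 inhibitors Cdkn2c, with a log2 fold change of 2.40 ± 0.33 (SE, adjusted p = 0.000404), and Cdkn2d, with 1.18 ± 0.17 (adjusted p = 0.000603). Cdkn2c was at 49.6, 28.9 and 104 CPM in cycling cells, against 16.8, 8.77 and 10.3 CPM in non-cycling cells, so the sides did not overlap. Gadd45g, a stress-induced growth arrest gene, was at 63.1, 19 and 53.4 CPM in cycling cells, against 138, 69.9 and 119 CPM in non-cycling cells (log2 fold change -1.42 ± 0.19). Klf4, a factor that promotes exit from the cycle in many tissues, and Zfp36l1, which destabilises mRNAs, were lower by -1.13 ± 0.15 and -0.64 ± 0.11. Cdkn1a and Cdkn1b, which encode p21 and p27, were not called, at 0.20 ± 0.14 and 0.23 ± 0.15.

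The Lyve1 macrophage programme, a list of 14 genes of Lyve1-positive resident macrophages, was lower in cycling cells at every member. In sum it stood at 1957, 2968 and 3161 CPM in cycling cells, against 3259.5, 6848 and 7129 CPM in non-cycling cells, and all 14 genes were called lower (median log2 fold change -1.17), where 3.89% of all genes tested were. The list was chosen with earlier results of these cells known, and the share of Lyve1-positive cells above rests on the same counts. Lyve1 (chr7:110850607-110863239) was at 131, 311 and 428 CPM in cycling cells, against 381, 1095 and 1239 CPM in non-cycling cells, a log2 fold change of -1.67 ± 0.12 (SE, adjusted p = 2.59e-06). Within each library the cycling profile was the lower one, although replicate 3's cycling profile exceeded replicate 1's non-cycling one. Complement C4b was at 18, 49.6 and 126 CPM in cycling cells, against 181, 283 and 408 CPM in non-cycling cells (log2 fold change -2.21 ± 0.20). Timd4, a receptor for phosphatidylserine on dying cells (chr11:46810800-46844332), was at 4.51, 24.8 and 20.5 CPM in cycling cells, against 35.7, 62.4 and 81.7 CPM in non-cycling cells (log2 fold change -1.69 ± 0.23). The sides did not overlap for C4b and Timd4, as for 7 of the 14 genes, where 7.58% of all genes tested did not overlap and were lower. Vsig4, a complement receptor, had 5 counts over all cycling cells and 326 over non-cycling cells. Vsig4 and Timd4 did not reach 7.58 CPM, the minimum of the filter on low counts, in every cycling profile. Both passed it only with the non-cycling profiles, so their calls do not count as support. The other members were not all checked in this way. The transglutaminase gene F13a1 (-0.96), the Fc receptor Fcgrt (-1.11), the bridging ligand Gas6 (-1.14) and the lectin Cd209f (-1.44) followed. Folr2 and Cd163 were called at -1.20 ± 0.22 and -0.76 ± 0.20, but in replicate 1 both were higher in cycling cells, and without replicate 2 neither was called.

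**Figure D3:**
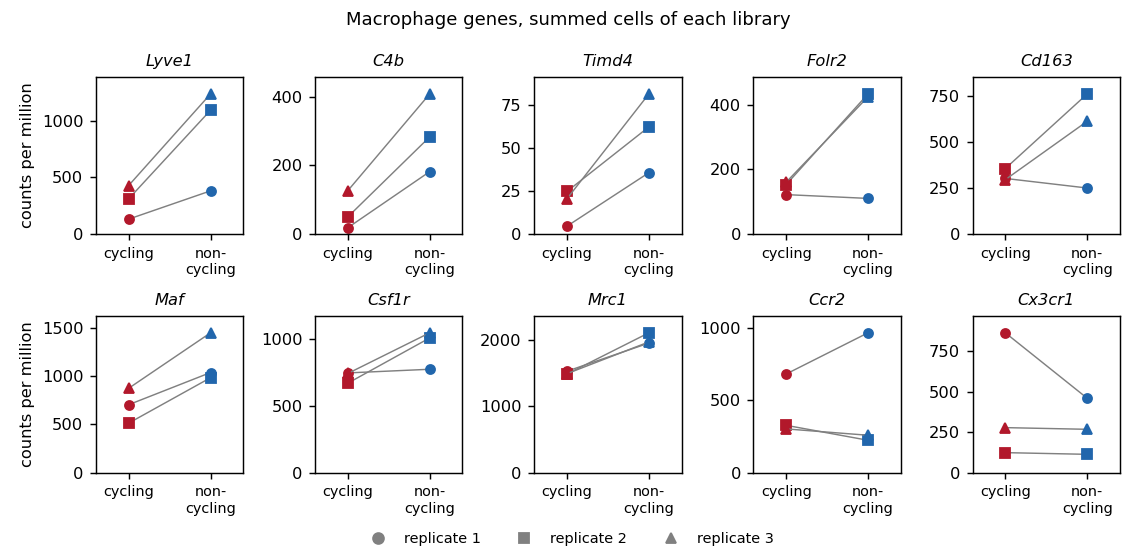
CPM (y axis, from 0) of 10 macrophage genes in summed cycling (red, left) and non-cycling (blue, right) macrophages, with a line for each library. Lyve1, C4b, Timd4, Maf and Mrc1 lie lower in cycling cells in all 3 libraries; Folr2, Cd163 and Ccr2 do not go 1 way in all 3 libraries.

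The Lyve1 programme was lower in cycling cells under other choices of cells too, though with fewer calls, and without replicate 2 there were 9 of 13. With non-cycling cells matched on UMIs, 9 of 13 tested members were called lower (median -1.10), and Lyve1 had a log2 fold change of -1.44 ± 0.21 (SE, adjusted p = 0.000463). Without cells that carried markers of other classes, Lyve1 was at -1.39 ± 0.17 and Timd4 at -1.36 ± 0.30 (SE, adjusted p = 4.06e-05 and 0.00985). Without the shared barcodes, Lyve1 was at -1.56 ± 0.12 (adjusted p = 3.37e-06). Among Lyve1-positive cells alone, 9 of 13 members were lower (median -0.81), where 3.37% of all genes were higher and 1.3% lower. Among Lyve1-negative cells alone 4 of 9 members were lower (median -0.69), where 3.9% of all genes were higher and 1.23% lower, and the other 4 and 5 tested members of the 2 subsets were not called. The cycling side in these subsets held 56 Lyve1-positive and 90 Lyve1-negative cells.

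General macrophage genes were lower by less. Of 24 tested identity genes 0 were higher and 8 were lower (median -0.35), where 3.89% of all genes tested were lower. The count rests on the libraries: 17 were lower and 1 higher without replicate 1, 1 was lower without replicate 2 and 4 without replicate 3. Lower were, among others, Maf, Ctsb, Apoe, Mertk, Mrc1, Lgmn and Csf1r. Maf, a transcription factor that restrains self-renewal in mouse macrophages, was at 703, 513 and 873 CPM in cycling cells, against 1036, 982 and 1446 CPM in non-cycling cells, a log2 fold change of -0.78 ± 0.11 (SE, adjusted p = 0.000625). With non-cycling cells matched on UMIs Maf was not called (adjusted p = 0.0569), and 2 of the 24 genes were. Csf1r, the receptor for the macrophage growth factor CSF1, was at 748, 672 and 744 CPM in cycling cells, against 776, 1011 and 1049 CPM in non-cycling cells (log2 fold change -0.42 ± 0.12, adjusted p = 0.0468). Growth factor genes as a list had 0 higher and 4 lower of 14 tested (median -0.08), which were Igf1, Dusp6, Il4ra and Csf1r, with 3 higher and 5 lower of 19 without replicate 1 and 0 of 14 in either direction without replicate 2.

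Monocyte and antigen presentation genes gave few calls with all 3 libraries. Of 18 tested monocyte genes 3 were higher (Clec4e, Lsp1 and S100a4, log2 fold changes of 1.05, 0.57 and 0.45) and Lyz2 was lower (-0.47). Over all genes tested 6.65% were higher and 3.89% lower. Without replicate 1, 10 of 20 were higher and 3 lower, and without replicate 2 or replicate 3, 1 was higher and 1 lower. Ccr2 was at 681, 327 and 302 CPM in cycling cells, against 965, 224 and 259 CPM in non-cycling cells, with no call (log2 fold change 0.08 ± 0.17, adjusted p = 0.841), but it was called higher without replicate 1 (0.37, adjusted p = 0.0227). Replicate 1 went the other way from replicates 2 and 3, although its Ccr2-positive macrophages had the higher share of cycling cells. Cx3cr1 was not called either (0.33 ± 0.16, adjusted p = 0.224). Of 13 tested MHC class II genes 0 were called in either direction by edgeR (median -0.12), with H2-Ab1 at -0.14 ± 0.18, and without replicate 1 there were 4 higher and 1 lower.

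Cytokine and chemokine genes were split. Of 24 tested, 5 were higher (Il1rn, Cxcl10, Nlrp3, Cxcl1 and Ptgs2) and 5 were lower (Ccl24, Ccl6, Ccl8, Ccl7 and Ccl9), with a median of 0.18. Over all genes tested 6.65% were higher and 3.89% lower. Without replicate 1 there were 11 higher and 5 lower, without replicate 2 there were 2 and 4, and without replicate 3 there were 3 and 4. Ccl24, an eosinophil attractant, was at 13.5, 79.3 and 56.1 CPM in cycling cells, against 198, 214 and 180.3 CPM in non-cycling cells (log2 fold change -1.78 ± 0.23, adjusted p = 0.000253). Il1rn, the interleukin 1 receptor antagonist, was at 198, 208 and 99.9 CPM in cycling cells, against 103, 138 and 31.9 CPM in non-cycling cells (log2 fold change 0.96 ± 0.19, adjusted p = 0.00511). Among cells with 10 or more UMIs of the pair 0 of these 24 genes were higher and 4 were lower, and without cells that carried markers of other classes Il1rn was not called (adjusted p = 0.443). Il1b was not called (0.52 ± 0.27, adjusted p = 0.273). Of 16 interferon response genes 0 were called, with Rsad2 at 0.53 ± 0.31 and Bst2 at -0.22 ± 0.17. Without replicate 1, 4 of 18 were lower.

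Genes that respond to tissue digestion were lower in cycling cells: of 22 tested 0 were higher and 11 were lower (median -0.53). Over all genes tested 6.65% were higher and 3.89% lower, which is also the share to set beside the trophic and scavenger lists below. Without replicate 1, 17 were lower, where 7.4% of all genes were. Without replicate 2, 5 were lower, where 76 of 8248 genes were. Jun, an immediate early gene, was at 897, 404 and 1252 CPM in cycling cells, against 1813, 1517 and 2559 CPM in non-cycling cells (log2 fold change -1.35 ± 0.16, adjusted p = 0.00011). The heat shock gene Hspa1b and Fos were at -0.91 ± 0.11 and -0.94 ± 0.13. Trophic factors had 0 higher and 5 lower of 11 tested (median -0.45), which were Gas6, Hbegf, Bmp2, Pdgfc and Igf1, and 3 were lower without replicate 2. Bmp2, by which muscularis macrophages of mice signal to enteric neurons, was at 113, 87.6 and 112 CPM in cycling cells, against 149, 159 and 204 CPM in non-cycling cells (log2 fold change -0.79 ± 0.14, adjusted p = 0.00334), and without replicate 2 it was not called (adjusted p = 0.101). Scavenger and efferocytosis genes had 0 higher and 7 lower of 17 (median -0.28), with 4 lower without replicate 2, among them the haem oxygenase gene Hmox1 (-0.96 ± 0.12). Gas6, Timd4, Igf1, Mertk and Csf1r stand on more than 1 of these lists.

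Metabolic and translation genes differed little. Of 23 tested ribosome biogenesis and translation genes 6 were higher and 0 lower (median 0.36), led by Ran (1.16 ± 0.14) and Ranbp1 (1.07 ± 0.13), which run nuclear transport and spindle assembly, and Ptma (0.80 ± 0.11). Of 24 respiratory chain genes 5 were higher and 0 lower (median 0.28), with cytochrome c (Cycs) at 0.58 ± 0.13. Of 16 glycolysis genes 3 were higher and 1 lower (median 0.29), with Gapdh at 0.60 ± 0.11 and Pfkfb3 at -0.60 ± 0.17. The proteasome and chaperone list had 1 higher of 19 and the sterol and fatty acid list 1 higher of 18, with 0 lower in each, near the 6.65% of all genes tested that were higher. Without replicate 1 there were 10 ribosome and translation, 7 respiratory, 6 glycolysis, 2 proteasome and 6 sterol genes higher. Without replicate 2 there were 3 ribosome and translation genes and 0 of the other 4 lists higher, and without replicate 3 there were 6 ribosome and translation genes and 1 respiratory gene. With non-cycling cells matched on UMIs, 0 genes of the respiratory, glycolysis, proteasome and sterol lists were called.

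**Figure D4:**
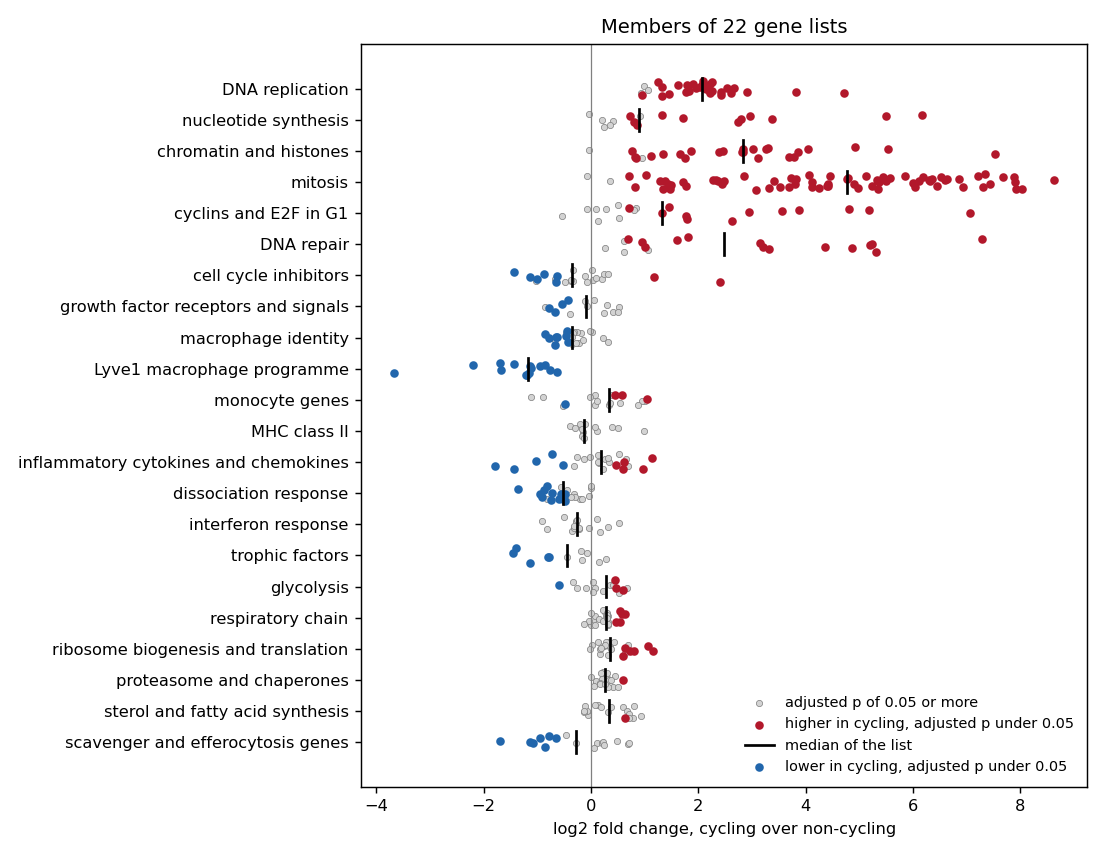
Log2 fold change, cycling over non-cycling (x axis), of each tested member of 22 gene lists (rows): red, called higher in cycling cells; blue, called lower; grey, not called; black bar, median of the list. Mitosis (median 4.77), chromatin (2.83), DNA repair (2.47) and DNA replication (2.08) lie to the right, although many of their tested members passed the filter only through cycling cells, and the Lyve1 macrophage programme (-1.17) to the left.

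Outside the lists, the higher genes with the smallest p were mostly further parts of the division machinery. Pclaf, which binds the replication clamp, was at 94.7, 170.2 and 231 CPM in cycling cells, against 2.10, 0.855 and 2.94 CPM in non-cycling cells (log2 fold change 6.54 ± 0.26, adjusted p = 4.45e-08). Diaph3 (4.13 ± 0.33), Hjurp (2.31 ± 0.19), Shcbp1 (5.27 ± 0.45), Spag5 (5.46 ± 0.47), the non-coding Lockd (4.93 ± 0.33), Slfn9 (3.57 ± 0.22) and the membrane protein Plp2 (1.66 ± 0.14) followed. Aspm and Cep55, of the spindle pole and of the final cut between daughter cells, had 111 and 55 counts in cycling cells. Against 3 and 1 counts in non-cycling cells, the ratios were 186 (counting interval 62.0 to 915) and 276 (47.6 to 11111). Pclaf, Aspm and Cep55 lay under 7.58 CPM, the minimum of the filter on low counts, in each non-cycling profile and so had to differ. On the lower side stood Fcna, a soluble lectin of the complement system, at 45.1, 102 and 119 CPM in cycling cells, against 153, 303 and 390.5 CPM in non-cycling cells (log2 fold change -1.67 ± 0.14, adjusted p = 7.09e-06). The small GTPase gene Rhob (-1.28 ± 0.12), the Notch target Hes1 (-1.76 ± 0.18), Tns1 (-1.32 ± 0.14), metallothionein Mt2 (-1.43 ± 0.16), Txnip (-1.19 ± 0.14), Fxyd2 (-1.36 ± 0.16) and Plk2 (-1.54 ± 0.19) were lower too. Ednrb, an endothelin receptor, was at 0, 71.0 and 84.8 CPM in cycling cells, against 158, 316 and 291 CPM in non-cycling cells. With 0 in replicate 1, Ednrb would not have passed the filter on the cycling profiles alone.

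The cycling cells were not alike. Summed over libraries, the mitosis list stood at 1702 CPM in cells with 0 UMIs of Mki67 and Top2a, 1810 with 1 UMI, 1881 with 2 or 3, 4688 with 4 to 9 and 16869 with 10 or more. The DNA replication list stood at 543, 724, 768, 2669 and 2732 CPM in the same order, so it was about as high with 4 to 9 as with 10 or more, although in the few cells of replicate 1 it was lower with 10 or more. The libraries differed for the cells with 2 or 3 UMIs, 63 of the 146: the mitosis list stood at 1300, 1606 and 2472 CPM in them in replicates 1, 2 and 3, against 1856, 1707 and 1650.3 CPM in cells with none. The DNA replication list stood at 787, 553 and 1138 CPM in them, against 697, 488 and 550.0 CPM. Only replicate 3 was higher on the mitosis list. Tested alone against non-cycling cells, they gave 6 genes higher (0.0802%) and 2 lower (0.0267%) of 7484, and 0 of 21 tested mitosis genes and 0 of 18 replication genes were called by edgeR, where 271 genes were higher and 303 lower at an unadjusted p under 0.05. The 6 higher genes were Tnfsf9, Bcl2a1d, Bcl2a1b, Arl5c, Dusp2 and Lrrfip1, and the 2 lower ones Hes1 and Tsc22d3. Bcl2a1b and Bcl2a1d are near-identical copies among which reads could be split.

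Cells with 10 or more UMIs, 5, 19 and 22 in replicates 1, 2 and 3, gave 504 genes higher (6.50%) and 278 lower (3.59%) of 7749. The Lyve1 programme then had 13 of 14 tested members lower (median -1.97). Summed over libraries, the Lyve1 programme stood at 6500 CPM in cells with 0 UMIs, 3949 with 1, 3517 with 2 or 3, 2663 with 4 to 9 and 2485 with 10 or more. It was thus lower already in the cells with 1 UMI, whose mitosis level was near that of cells with 0. Median depth changed along the same bins, at 8794.5, 11537.5, 11804, 14703 and 16621.5 UMIs. In replicate 1 the bins above 0 held 14, 4, 4 and 5 cells, and replicate 3 had 12 cells with 4 to 9 UMIs. Between libraries the order of the bins above 0 differed for the Lyve1 programme, which was higher with 10 or more UMIs than with 4 to 9 in replicate 3. In replicate 1 it rose from 1367 CPM with 1 UMI to 1868 with 2 or 3 and 2369 with 4 to 9, and was 1594 with 10 or more.

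**Figure D5:**
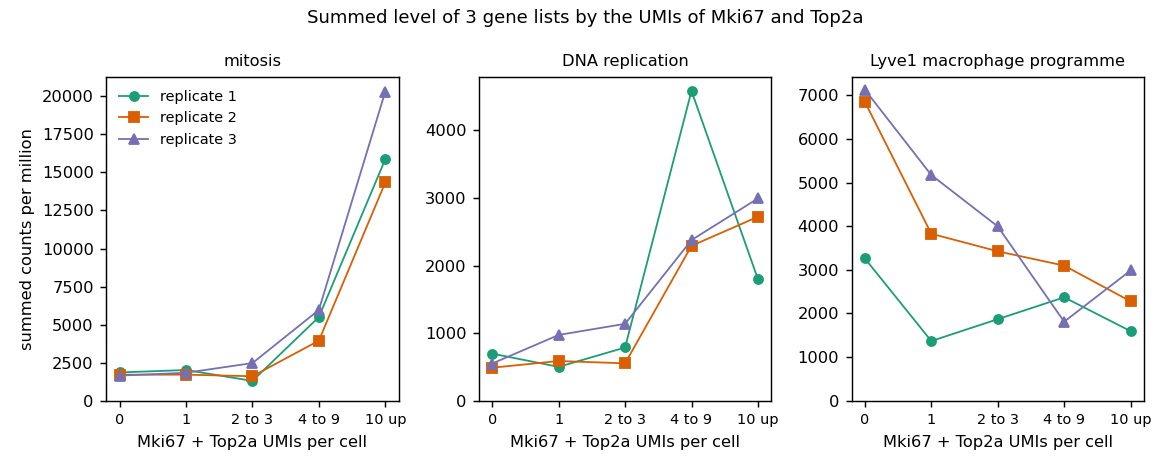
Summed CPM (y axes, from 0) of the mitosis, DNA replication and Lyve1 programme lists in macrophages binned by their UMIs of Mki67 and Top2a (x axis), 1 line a library. The mitosis list lies at 1300 to 2472 CPM up to 3 UMIs and at 14342 to 20314 CPM with 10 or more, while the Lyve1 programme is highest with 0 UMIs in each library.

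Thinned to 3000 UMIs, 11 mitosis UMIs and 4 replication UMIs were the 95th percentiles of non-cycling cells. Of the 146 cycling cells 49 exceeded both (33.6%), 19 exceeded mitosis alone (13%), 9 exceeded replication alone (6.16%) and 69 exceeded neither (47.3%). Of these 69 cells 55 had 2 or 3 UMIs of the pair and 1 had 10 or more. By library, 3 of 13, 45 of 77 and 21 of 56 cells exceeded neither. The limits are cuts on a range, not classes of cells, and the median cycling cell held 18, 8 and 19.5 mitosis UMIs in replicates 1, 2 and 3, against 5.5, 4 and 4 in non-cycling cells.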

How the data were processed

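Each library came as a matrix of UMI counts that the authors deposited without normalisation, with 31053 gene identifiers. The submitters' processing notes name Cell Ranger 3.1 and the mouse build mm10. The headers of the deposited count files give version 3.0.0 in replicate 1 but 3.1.0 in replicates 2 and 3. How reads that match several genes were counted is not given in the sources used here. In all, the series' libraries held 6777422, 13336484 and 11017170 UMIs.

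From these counts, cells were chosen by the rule in the report and summed per library and side (221804, 1210577 and 730771 UMIs in cycling cells, 1428132, 4677108 and 4763238 in non-cycling cells). The sums were tested with edgeR 4.0.16 in R 4.3.3 (filterByExpr, TMM, two-sided quasi-likelihood test, library as a block, p-values adjusted by Benjamini-Hochberg over every tested gene, calls at an adjusted p under 0.05). The pairing follows from the design, since each library gave both sides. Standard errors were taken as the log2 fold change over the square root of F. The test was tried on simulated counts. Counting intervals of ratios are exact and conditional on the sum. Log2 odds ratios had 0.5 added to each count. Doublets were scored with scrublet in scanpy 1.11.5, and the highest scores, 0.8% per 1000 barcodes, were removed in an alternative only.

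The members and the 22 gene lists were chosen with earlier results of these data known. Named genes were, in each list, up to 3 higher and 3 lower called members with the smallest p that moved 1 way in every library (with none, the 2 members with the highest mean CPM), the 10 higher and 10 lower such genes outside the lists, and 20 genes named in advance, without Gm and Rik models. Promoters came from a RefSeq table on GRCm38.p6 and gene coordinates from GENCODE vM21, matched by gene identifier. The listed symbols Sgol1 and Cct6a matched no gene name in the files, and Aldoa, which has several identifiers, was left out of its list. Alternatives are given in the closing section. Some genes that the naming rule would include are not reported here.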

Additional observations from a re-analysis of the deposited data

How the results depend on the processing

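Without the library as a replicate block, so with the pairing of the 2 sides ignored, 278 genes were higher and 28 lower in cycling cells, against 565 and 330 with it, and 49 named genes kept their side of the threshold while 49 lost their call. DESeq2 gave 334 higher and 129 lower, and thinning to 3000 UMIs 253 and 161. Non-cycling cells matched on UMIs gave 169 lower, Mki67 alone 196 lower, and no filter on low counts 577 lower. Without cells that carried markers of other classes there were 312 higher and 143 lower. Leaving out 1 library gave 301 to 995 higher and 76 to 741 lower. Chosen after the data were seen, only 2 or 3 UMIs of the pair gave 6 higher and 2 lower, Lyve1-positive cells alone 194 and 75, and Lyve1-negative cells alone 282 and 89. The share of cycling cells was 6.83% at a threshold of 3 UMIs and 3.15% at 10 UMIs, and 8.14 to 10.7% with 1 library left out. The log2 ratio of median UMIs was 0.85 with a minimum of 1000 UMIs per cell, 0.96 at 10 UMIs of the pair, and 0.60 to 0.74 with 1 library left out. The other tried settings for these counts and values stayed within 1.5 times the count or 1 SD of the value, and the mean log2 odds ratios of Lyve1, Ccr2 and Cx3cr1 kept their sign under every setting tried, although without cells that carried markers of other classes replicate 1 turned for Lyve1 (0.23) and Ccr2 (-0.23). Of named genes that were called, 5 changed sign in 1 setting each: Hmgb2 (-0.00154), Ppia (-0.00518) and Pfkfb3 (0.0780) with only 2 or 3 UMIs, Il1rn (-0.0912) with Top2a alone, and Bmp2 (0.13) in Lyve1-positive cells. Genes without a call also changed sign, such as Ccr2 (0.08, but -0.42 with Top2a alone), Cx3cr1 (0.33, but -0.14 in Lyve1-negative cells) and H2-Ab1 (-0.14, but 0.20 without replicate 1). The cause was not tested. The 221804 UMIs of cycling cells in replicate 1, from 13 cells, limit what that library can show.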
